A study of Mus musculus with 16 samples.

Results

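Glycolysis and the response to low oxygen were followed through 34 genes, the enzymes and transporters of glycolysis together with the oxygen-sensing factors and some of their targets. The genes were chosen by name, with earlier results of these data known, so their shares set against all genes are a description. A probe set counted as a member where the array annotation gave it a single symbol equal to that of a chosen gene. Of the 34 genes, 31 were measured this way, by 39 probe sets among 21789 with a single symbol, and the measured genes in all were 19938. Gpi1, Gapdh and Eno1 had no such probe set, so the second step of glycolysis and the usual partner of Eno2 were not analysed here, and Gapdh is given apart at the end. The values are log2 expression values from 16 arrays of total RNA, 4 arrays for each of 4 groups of mouse brain tissue. They give differences between groups for a gene, and levels of different genes are not set against each other.

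PDGF-p53 tumours (labelled PDGF+p53-/-) were made in mice with floxed p53 alleles by a retrovirus that carries PDGF-B and Cre recombinase. PDGF-p53-RBPJ tumours (PDGF+p53-/-RBPjk-/-) came from the same virus in mice with floxed p53 and RBPjk alleles, RBPjk being the DNA-binding partner of Notch. In p53-RBPJ tumours (p53-/-RBPjk-/-) no virus was used, and an Hes5::CreERT2 transgene, active in Hes5-expressing neural stem and progenitor cells, removed both floxed genes, so these tumours differ from the others in the PDGF-B virus and in the cells that received Cre. Control samples were normal brain that is wild type for all 3 genes. Tumour tissue was recognised by a GFP reporter that Cre turns on, cut out when mice showed symptoms and lysed whole, so host cells are part of each sample. The labels number the arrays of a group as replicates 1 to 4 and do not say that they are separate animals, so every p-value rests on the spread among these arrays, a part of which may be technical.

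Cells split glucose into pyruvate, and pyruvate either enters mitochondria or is turned into lactate and exported. Most steps have several isoforms that differ between tissues, with neurons relying on some and dividing cells on others. When oxygen falls, prolyl hydroxylases of the Egln family stop marking the HIF alpha subunits Hif1a and Epas1 for destruction, and these join Arnt and bind the core sequence ACGTG or GCGTG near genes of glycolysis, blood vessel growth and acid export. The control of the alpha subunits is on the protein, which an RNA array does not see.

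Before the values, the promoters of 5 members are shown, since Adm and P4ha1 (the targets that rose most), Hk2 and Ldha (glycolytic enzymes) and Eno2 (the gene that fell most) differ in how many of these core sequences lie near their start. RefSeq promoter windows of assembly GRCm38.p6, from 250 bases before to 50 after a gene's start, matched 31 of the 34 members (43 windows, since some genes have several starts). None matched Epas1, Slc2a3 and Ndrg1. ACGTG and GCGTG were searched on both strands, so that they read as CACGT and CACGC where they lie on the other strand, and CACGTG, which holds ACGTG on both, counts as 2 overlapping matches. Capitals mark every match, and each window is written 5′ to 3′ along its gene's own strand. The Adm window is chr7:110627407-110627706 on the plus strand and that of P4ha1 is chr10:59323046-59323345 on the plus strand. The Hk2 window is chr6:82774405-82774704 on the minus strand, the first of the Ldha windows is chr7:46845554-46845853 on the plus strand, and the Eno2 window is chr6:124769624-124769923 on the minus strand.
Adm: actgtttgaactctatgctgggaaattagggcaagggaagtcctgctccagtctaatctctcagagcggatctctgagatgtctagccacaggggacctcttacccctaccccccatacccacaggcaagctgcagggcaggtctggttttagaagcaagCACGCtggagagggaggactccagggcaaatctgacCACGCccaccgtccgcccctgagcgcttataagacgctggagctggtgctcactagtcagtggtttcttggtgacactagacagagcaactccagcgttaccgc
P4ha1: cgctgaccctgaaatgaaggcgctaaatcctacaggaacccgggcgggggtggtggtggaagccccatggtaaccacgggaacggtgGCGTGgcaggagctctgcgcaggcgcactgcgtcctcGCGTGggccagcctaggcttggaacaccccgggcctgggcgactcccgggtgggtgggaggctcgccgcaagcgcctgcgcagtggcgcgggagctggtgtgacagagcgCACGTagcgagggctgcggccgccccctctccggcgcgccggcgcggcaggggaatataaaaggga
Hk2: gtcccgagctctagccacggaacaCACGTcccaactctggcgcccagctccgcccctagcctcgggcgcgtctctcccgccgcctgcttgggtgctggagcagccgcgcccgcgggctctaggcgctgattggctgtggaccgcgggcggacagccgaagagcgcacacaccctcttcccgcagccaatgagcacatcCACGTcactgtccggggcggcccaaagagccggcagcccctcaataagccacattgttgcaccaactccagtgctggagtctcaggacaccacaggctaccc
Ldha: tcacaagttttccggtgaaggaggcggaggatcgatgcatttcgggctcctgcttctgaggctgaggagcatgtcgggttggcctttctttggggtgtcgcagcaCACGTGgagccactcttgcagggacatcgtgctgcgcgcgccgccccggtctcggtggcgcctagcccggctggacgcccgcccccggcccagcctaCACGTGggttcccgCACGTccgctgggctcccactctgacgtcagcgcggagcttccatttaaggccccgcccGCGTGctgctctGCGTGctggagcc
Eno2: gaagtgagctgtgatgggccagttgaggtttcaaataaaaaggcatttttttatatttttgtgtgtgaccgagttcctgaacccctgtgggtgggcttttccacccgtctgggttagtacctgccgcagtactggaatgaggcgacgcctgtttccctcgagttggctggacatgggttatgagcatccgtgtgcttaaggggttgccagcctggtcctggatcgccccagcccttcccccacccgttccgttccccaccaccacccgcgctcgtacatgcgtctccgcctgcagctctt
The Adm window holds 2 matches, both GCGTG, and the P4ha1 window holds 3, of which 1 is ACGTG. The Hk2 window holds 2, both ACGTG. The first Ldha window holds 7, of which 5 are ACGTG, and the Eno2 window holds 0. The other members with a window that fell in all 3 tumour types do hold matches. The Pfkp window has 4 and that of Ldhb 1, and windows of Pfkm, Pkm and Aldoa have up to 3, 2 and 1. Whether the number of matches goes with the changes was not tested. Over the members, 35 of 43 windows held either core (81.4%), against 43.8% of 32851 windows of all genes. The members include genes listed as HIF targets, so this share is not independent of how they were chosen. Some windows of Eno1, Aldoa and Pfkm overlap, so a match can count more than once. Windows of Gpi1, Gapdh and Eno1, which were not measured, are among the 43. ACGTG was in 55.8% of the members' windows and in 19.6% of all windows, and GCGTG in 55.8% and 32.4%. The members' windows were also richer in G and C, with a median of 63.3% against 52.7%. A match describes the letters of a window and is not a bound site.

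Against control brain the members moved in both directions. In PDGF-p53 tumours 14 of 31 were called changed (limma over all genes, adjusted p under 0.05), 6 higher and 8 lower, where 31.1% of all genes were called, 13.6% higher and 17.6% lower. In PDGF-p53-RBPJ tumours 14 were called, 5 higher and 9 lower, against 33.6% of all genes, 15.7% higher and 17.9% lower. In p53-RBPJ tumours 15 were called, 4 higher and 11 lower, against 36.8% of all genes, 16.4% higher and 20.4% lower. The median difference of the members was -0.09, -0.02 and -0.09 in these comparisons, where that of all genes was -0.04, -0.03 and -0.02. The median size of a member's difference was 0.54, 0.52 and 0.53, where that of all genes was 0.24, 0.25 and 0.28. The members were mostly bright, with 1 of 31 below the median brightness of all genes. A fit of the 9969 genes at or above that median called 49.5%, 52.2% and 57% of them in these comparisons. Of the members 8 fell in all 3 tumour types (25.8%, against 14.1% of all genes), namely Slc2a3, Pfkm, Pfkp, Aldoa, Eno2, Pkm, Ldhb and Ndrg1. Arnt and P4ha1 rose in all 3 (6.45%, against 10.2% of all genes). The 4 rises in p53-RBPJ tumours (Arnt, P4ha1, Egln3 and Car9) did not pass with a term for the sex pattern of the arrays (0.29, 0.61, 0.93 and 0.41, adjusted p between 0.061 and 0.079), where 11 members were called, 0 of them higher, and 32.2% of all genes. Without PDGF-p53 replicate 1 the count in PDGF-p53 tumours was 9, where 26.4% of all genes were called.

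**Figure D1:**
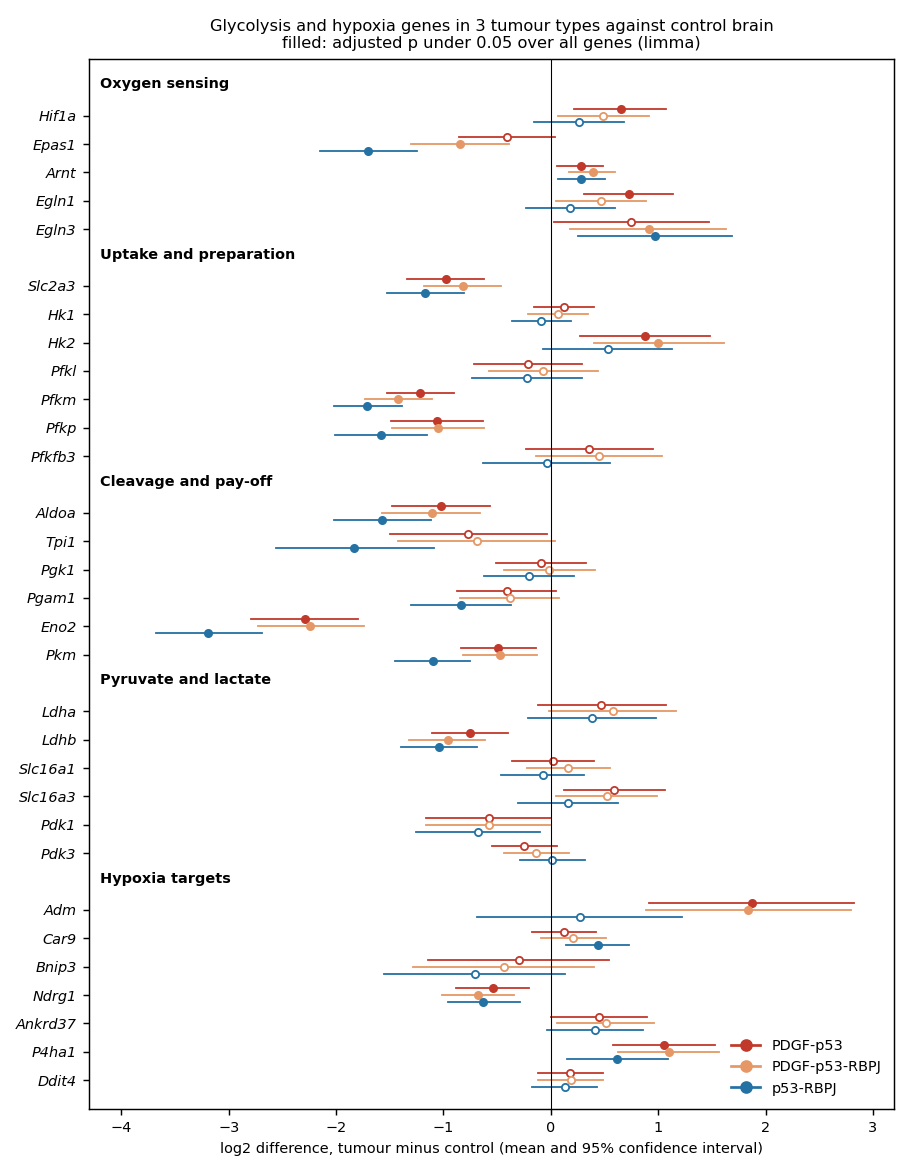
Log2 difference from control brain (x axis, mean of 4 tumour arrays minus mean of 4 control arrays, with the 95% confidence interval of the fit) for the 31 measured members, grouped by role, with the tumour types told apart by colour. Filled points passed the adjusted threshold: Eno2 lies farthest to the left, at -2.29, -2.24 and -3.19, and Adm farthest to the right in both PDGF tumour types, at 1.87 and 1.84.

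The whole samples changed far beyond these genes. All 15 measured neuron markers were lower in each tumour type, with array means of 7.44 to 8.83 in PDGF-p53, 7.23 to 8.48 in PDGF-p53-RBPJ and 6.61 to 7.82 in p53-RBPJ tumours, against 10.55 to 10.61 in control brain. All 9 markers of oligodendrocyte precursors and all 14 proliferation genes were higher in each type. In whole tissue, fewer cells of a type and less RNA per cell cannot be told apart, and the part of neuron content in the falls below was not tested. Values are centred by the authors' normalization. Centring each array on 9 housekeeping genes in its place moved the median of all genes to -0.33, -0.35 and -0.21 in the 3 tumour types, so changes here are relative to the typical gene. Those 9 genes were not unchanged themselves: 7 were called in each type, with 5, 5 and 4 higher and 2, 2 and 3 lower. Their mean was 10.62, 10.66 and 10.52, against 10.34 in control brain, so neither centring is a fixed reference. Under that centring 1418 genes were higher and 8267 lower in PDGF-p53 tumours, against 2703 and 3505 without it, 1606 and 9152 in PDGF-p53-RBPJ tumours, against 3126 and 3576, and 2132 and 5982 in p53-RBPJ tumours, against 3263 and 4067. The members called were then 15 (2 higher), 16 (3 higher) and 12 (0 higher).

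Of the glucose uptake and preparation genes, the neuronal glucose transporter Slc2a3 and the phosphofructokinases Pfkm and Pfkp fell in every tumour type, while hexokinase Hk2 rose in both PDGF types. Slc2a3 read 6.91, 7.55, 7.11 and 7.30 in PDGF-p53, 7.31, 7.51, 7.45 and 7.25 in PDGF-p53-RBPJ and 7.44, 7.14, 6.94 and 6.59 in p53-RBPJ tumours, against 7.95, 8.40, 8.30 and 8.15 in control brain. Every tumour array lay below every control array. The differences were -0.98, -0.82 and -1.17 (SE 0.17, adjusted p = 0.000231, 0.00104 and 2.56e-05). Pfkm, the muscle-type phosphofructokinase that commits sugar to glycolysis, read 8.01, 8.40, 8.49 and 8.17 in PDGF-p53, 8.12, 7.87, 8.24 and 8.02 in PDGF-p53-RBPJ and 8.09, 7.98, 7.51 and 7.53 in p53-RBPJ tumours, against 9.32, 9.58, 9.52 and 9.51 in control brain. Again no tumour array reached the controls. It fell by 1.22, 1.42 and 1.71 (SE 0.15, adjusted p = 6.08e-06, 1.01e-06 and 8.21e-08), which is 2.33-, 2.67- and 3.26-fold lower. Pfkp, the platelet-type isoform, fell by 1.06, 1.05 and 1.58 (SE 0.20, adjusted p = 0.000593, 0.000537 and 6.53e-06), with 8.06 to 9.52 over the 12 tumour arrays, against 10.06 to 10.48 in control brain. The liver-type isoform Pfkl did not pass in any type (-0.21, -0.07 and -0.22, adjusted p = 0.569, 0.864 and 0.529). Pfkfb3, which makes the activator of phosphofructokinase, was at 0.36, 0.45 and -0.04 (adjusted p = 0.377, 0.246 and 0.938).

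Hk2, the hexokinase of muscle and of many tumours, read 6.82, 6.58, 5.92 and 7.65 in PDGF-p53, 6.94, 7.25, 6.81 and 6.47 in PDGF-p53-RBPJ and 6.40, 6.79, 6.65 and 5.73 in p53-RBPJ tumours, against 5.65, 6.07, 5.90 and 5.84 in control brain. All PDGF-p53-RBPJ arrays were above the controls, while PDGF-p53 replicate 3 and p53-RBPJ replicate 4 lay among them. Hk2 rose by 0.88 and 1.0 in PDGF-p53 and PDGF-p53-RBPJ tumours (SE 0.29, adjusted p = 0.0257 and 0.0107) and was at 0.53 in p53-RBPJ tumours (adjusted p = 0.17). The first of these calls did not survive leaving out control array 1 or 4 or PDGF-p53 array 1 or 4 (0.57 to 0.87, adjusted p between 0.0521 and 0.1) or housekeeping centring (0.59, adjusted p = 0.0694).

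Hk1, the main hexokinase of brain, had 2 probe sets that disagreed. The brighter of the 2 gave 0.12, 0.07 and -0.09 (SE 0.13, adjusted p = 0.557, 0.743 and 0.658). The annotation lists no RefSeq transcript for it. The annotation names Hk1 with further genes for another 16 probe sets, all of them with the ribosomal protein gene Rpl17, and the median difference of those was 0.07, 0.10 and -0.04. The probe set that lists a RefSeq Hk1 transcript read 7.75, 8.45, 8.03 and 8.28 in PDGF-p53, 8.02, 8.02, 8.16 and 8.06 in PDGF-p53-RBPJ and 7.68, 7.80, 7.42 and 7.66 in p53-RBPJ tumours, against 8.91, 9.23, 9.24 and 8.99 in control brain. Here no tumour array reached the controls, and Hk1 fell by 0.97, 1.03 and 1.45 (adjusted p over all probe sets = 4.27e-05, 1.87e-05 and 3.06e-07). Whether the brighter probe set reads Hk1 was not tested, so both results stand, with the count of called members resting on the brighter.

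Of the enzymes from aldolase to pyruvate kinase, Aldoa, Eno2 and Pkm fell in all 3 tumour types, Tpi1 and Pgam1 in p53-RBPJ tumours, and Pgk1 did not pass in any. Eno2, the neuron-specific enolase, read 6.80, 7.50, 7.95 and 7.68 in PDGF-p53, 7.42, 7.79, 7.98 and 6.97 in PDGF-p53-RBPJ and 6.79, 6.33, 6.94 and 6.29 in p53-RBPJ tumours, against 9.61, 9.84, 9.85 and 9.81 in control brain. The highest tumour array lay well under the lowest control array. Eno2 fell in all 3 types, with differences of -2.29, -2.24 and -3.19 (SE 0.23, adjusted p = 9.91e-07, 1.05e-06 and 1.52e-08), which is 4.9-, 4.71- and 9.12-fold lower. Aldoa, the main aldolase of muscle and brain, read 10.87, 11.21, 10.70 and 11.79 in PDGF-p53, 11.16, 11.25, 11.27 and 10.52 in PDGF-p53-RBPJ and 10.81, 10.72, 10.68 and 10.16 in p53-RBPJ tumours, against 12.03, 12.17, 12.27 and 12.20 in control brain. It fell by 1.02, 1.11 and 1.57 (SE 0.22, adjusted p = 0.00127, 0.000533 and 1.31e-05), with no overlap. Pkm, the pyruvate kinase of brain, muscle and dividing cells, read 9.51, 9.65, 9.33 and 10.06 in PDGF-p53, 9.65, 9.92, 9.82 and 9.22 in PDGF-p53-RBPJ and 8.97, 9.14, 9.13 and 8.85 in p53-RBPJ tumours, against 9.97, 10.31, 10.13 and 10.10 in control brain. PDGF-p53 replicate 4 was the tumour array that reached the controls. Pkm fell by 0.49 and 0.47 in PDGF-p53 and PDGF-p53-RBPJ tumours (SE 0.17, adjusted p = 0.0312 and 0.0339) and by 1.10 in p53-RBPJ tumours (adjusted p = 3.4e-05). These Pkm values are from the brighter of 2 probe sets, and the splice forms were not told apart. The other probe set did not pass in any type, at -0.08, 0.04 and -0.38 (adjusted p over all probe sets = 0.812, 0.911 and 0.134).

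The smaller Pkm falls lay near the threshold. In PDGF-p53 tumours Pkm no longer passed when control array 2, 3 or 4 or PDGF-p53 array 1, 2 or 3 was left out (-0.50 to -0.38, adjusted p between 0.0535 and 0.103). Averaging its probe sets in place of the brightest gave -0.28 (adjusted p = 0.247). In PDGF-p53-RBPJ tumours it no longer passed when control array 2, 3 or 4 or PDGF-p53-RBPJ array 1 or 4 was left out (-0.48 to -0.33, adjusted p between 0.0564 and 0.132), and averaging the probe sets gave -0.22 (adjusted p = 0.376). Tpi1, triose phosphate isomerase, read 9.98, 8.76, 8.84 and 8.15 in p53-RBPJ tumours, against 10.29, 10.95, 10.93 and 10.86 in control brain, and it fell by 1.83 (SE 0.35, adjusted p = 0.000378). In PDGF-p53 and PDGF-p53-RBPJ tumours it was at -0.77 and -0.69 (adjusted p = 0.106 and 0.149). It passed in PDGF-p53 tumours without replicate 4 of that group (-1.01, adjusted p = 0.0411), for PDGF-p53-RBPJ tumours in a fit of only the 2 groups (-0.69, adjusted p = 0.0286), and in both with housekeeping centring (-1.05 and -1.01, adjusted p = 0.0156 and 0.0176). Pgam1, phosphoglycerate mutase, fell by 0.84 in p53-RBPJ tumours (SE 0.22, adjusted p = 0.00557), with -0.41 and -0.38 in PDGF-p53 and PDGF-p53-RBPJ tumours (adjusted p = 0.182 and 0.211). Pgam1 passed in PDGF-p53 tumours without replicate 4 of that group (-0.67, adjusted p = 0.008), and in both with housekeeping centring (-0.69 and -0.70, adjusted p = 0.0101 and 0.00831). Pgk1, phosphoglycerate kinase and a classical HIF target, was at -0.09, -0.02 and -0.20 (SE 0.20, adjusted p = 0.794, 0.966 and 0.488).

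**Figure D2:**
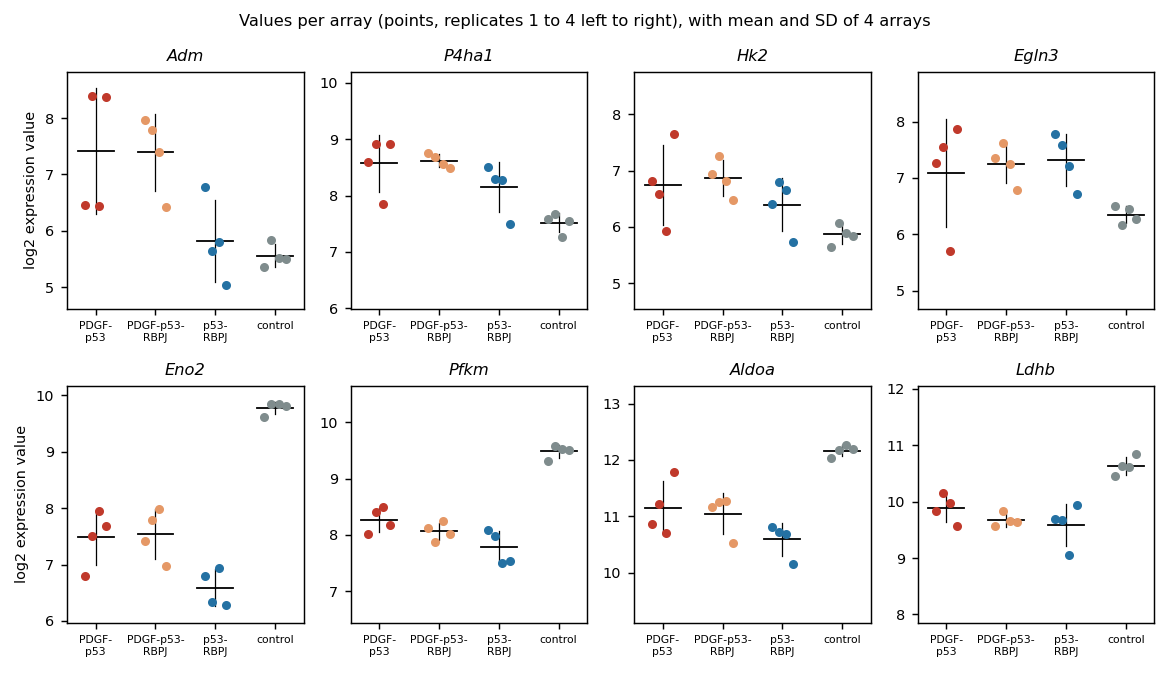
Log2 expression value (y axis, the same span in each panel) of 8 members in each array, by group (x axis), with the mean (bar) and SD (line) of 4 arrays. For Eno2, Pfkm, Aldoa and Ldhb every tumour array lies below every control array, while Adm, P4ha1, Hk2 and Egln3 lie higher in most tumour arrays.

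At the end of the pathway Ldhb, the lactate dehydrogenase subunit of oxidative tissues, fell in every tumour type, and Ldha, the subunit of glycolytic tissues, did not pass. Ldhb read 9.83, 10.16, 9.97 and 9.57 in PDGF-p53, 9.56, 9.83, 9.66 and 9.64 in PDGF-p53-RBPJ and 9.69, 9.68, 9.06 and 9.94 in p53-RBPJ tumours, against 10.46, 10.63, 10.61 and 10.85 in control brain. No tumour array reached the controls, and the differences were -0.75, -0.96 and -1.04 (SE 0.17, adjusted p = 0.00199, 0.000194 and 7.1e-05). Ldha read 11.18, 11.56, 10.25 and 11.93 in PDGF-p53, 11.43, 11.68, 11.45 and 10.78 in PDGF-p53-RBPJ and 11.39, 11.27, 11.30 and 10.62 in p53-RBPJ tumours, against 10.71, 11.02, 10.51 and 10.80 in control brain. In each type 3 arrays were above all controls and 1 was not. Its differences were 0.47, 0.58 and 0.38 (SE 0.28, adjusted p = 0.237, 0.134 and 0.325). Without PDGF-p53 replicate 3 Ldha passed in PDGF-p53 tumours, at 0.80 (adjusted p = 0.0124), and in PDGF-p53-RBPJ tumours at 0.58 (adjusted p = 0.0448), where a fit of only the 2 groups and array weights also passed it (0.58 and 0.61, adjusted p = 0.0288 and 0.049). The lactate exporter Slc16a3 was at 0.59, 0.52 and 0.16 (SE 0.22, adjusted p = 0.0533, 0.0832 and 0.64), and it passed in PDGF-p53 tumours without replicate 3 of that group (0.78, adjusted p = 0.00913) or without control replicate 1 (0.69, adjusted p = 0.0399) or without dim genes (0.59, adjusted p = 0.0389), and in PDGF-p53-RBPJ tumours in a fit of only the 2 groups (0.52, adjusted p = 0.0349). Slc16a1, the more widespread lactate carrier, was at 0.02, 0.16 and -0.07. The kinases that shut pyruvate out of mitochondria did not pass either: Pdk1, a HIF target, was at -0.58, -0.58 and -0.68 (SE 0.27, adjusted p = 0.125, 0.118 and 0.062), and Pdk3 was at -0.25, -0.14 and 0.01. Both stood lower with housekeeping centring, where Pdk1 passed in all 3 types (-0.86, -0.91 and -0.86, adjusted p = 0.012, 0.00805 and 0.0126) and Pdk3 in both PDGF types (-0.53 and -0.46, adjusted p = 0.0081 and 0.0169). Without PDGF-p53 replicate 3 Pdk1 passed in both groups with deleted RBPjk (PDGF-p53-RBPJ with adjusted p = 0.0468, p53-RBPJ with adjusted p = 0.0196), and without p53-RBPJ replicate 2 it passed in p53-RBPJ tumours (-0.79, adjusted p = 0.0486). Fits of only the 2 groups, array weights or no dim genes also passed it in 1 or both of these types (adjusted p between 0.0213 and 0.0486).

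Among the oxygen-sensing genes, Hif1a rose in PDGF-p53 tumours and Epas1 fell in the other tumour types. Hif1a, the subunit present in most cells, read 9.37, 9.50, 9.01 and 9.26 in PDGF-p53, 9.39, 8.77, 9.49 and 8.88 in PDGF-p53-RBPJ and 9.17, 9.17, 8.31 and 8.95 in p53-RBPJ tumours, against 8.64, 8.60, 8.40 and 8.92 in control brain. All PDGF-p53 arrays lay above the controls. Hif1a rose by 0.65 there (SE 0.20, adjusted p = 0.0199) and was at 0.49 and 0.26 in PDGF-p53-RBPJ and p53-RBPJ tumours (adjusted p = 0.0723 and 0.354). The rise did not pass when control array 3 or PDGF-p53 array 1 or 2 was left out (0.57 to 0.62, adjusted p between 0.0509 and 0.0656), nor under housekeeping centring (0.36, adjusted p = 0.138). In PDGF-p53-RBPJ tumours Hif1a passed without PDGF-p53-RBPJ replicate 2 (0.61, adjusted p = 0.0353) or p53-RBPJ replicate 3 (0.49, adjusted p = 0.0328), and with array weights or a sex term (0.64 and 0.56, adjusted p = 0.0081 and 0.0375). Epas1 (HIF-2 alpha), known from endothelium and astrocytes, read 7.63, 8.26, 8.89 and 8.52 in PDGF-p53, 7.80, 7.83, 8.08 and 7.83 in PDGF-p53-RBPJ and 7.01, 6.51, 7.29 and 7.33 in p53-RBPJ tumours, against 8.71, 8.81, 8.60 and 8.82 in control brain. PDGF-p53 replicate 3 was above all controls, and the other tumour arrays were below them. In PDGF-p53-RBPJ tumours Epas1 fell by 0.85 (SE 0.21, adjusted p = 0.0049), and in p53-RBPJ tumours it fell by 1.70 (adjusted p = 5.44e-06). In PDGF-p53 tumours it stood at -0.41 (adjusted p = 0.173). Without PDGF-p53 replicate 3 that value was -0.60 (adjusted p = 0.0339), and with housekeeping centring it was -0.69 (adjusted p = 0.0222).

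The endothelial list, the other home of Epas1, had array means of 6.45 to 6.86 in PDGF-p53 tumours, 6.47 to 6.84 in PDGF-p53-RBPJ tumours and 6.41 to 6.83 in p53-RBPJ tumours, against 6.89 to 7.08 in control brain. Of its 10 measured genes 2, 2 and 3 were called lower and 0, 0 and 1 higher. Astrocyte markers had array means of 7.24 to 8.48, 7.35 to 7.91 and 6.95 to 7.36, against 8.94 to 9.14 in control brain, with 7 of 9 called lower in each type. The part of either cell type in the Epas1 values was not tested. Arnt, the shared partner of the alpha subunits, rose by 0.28, 0.39 and 0.28 (SE 0.10, adjusted p = 0.047, 0.00596 and 0.0347), with all 12 tumour arrays between 8.20 and 8.59 and the controls between 7.91 and 8.11. The call in PDGF-p53 tumours was the least stable of all members' calls, lost in 19 of 26 alternatives, while that in PDGF-p53-RBPJ tumours was lost in 1 and that in p53-RBPJ tumours in 8. With housekeeping centring Arnt stood at -0.01, 0.06 and 0.10, none of which passed. In PDGF-p53 tumours its call was also lost when 13 of the 16 arrays were left out in turn (0.24 to 0.30, adjusted p up to 0.125), the exceptions being PDGF-p53 replicate 4 and PDGF-p53-RBPJ replicates 2 and 4. It did not pass there with the trend and robust settings, array weights, only the 2 groups, the replicate block or the sex term either (0.27 to 0.28, adjusted p between 0.0503 and 0.0819). For p53-RBPJ tumours it failed once control array 1, 2 or 3 or p53-RBPJ array 3 or 4 was left out (0.25 to 0.30, adjusted p between 0.0505 and 0.0968), and in a fit of only the 2 groups (0.28, adjusted p = 0.0675).

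The prolyl hydroxylases are themselves HIF targets. Egln1, the main oxygen sensor, rose by 0.73 in PDGF-p53 tumours (SE 0.20, adjusted p = 0.00897) and was at 0.47 and 0.18 in PDGF-p53-RBPJ and p53-RBPJ tumours (adjusted p = 0.0818 and 0.523). With housekeeping centring the first value was 0.44 (adjusted p = 0.054). Egln1 passed in PDGF-p53-RBPJ tumours without replicate 4 of that group (0.63, adjusted p = 0.018), with array weights (0.45, adjusted p = 0.0422) and with the replicate number as a block (0.47, adjusted p = 0.0457). Egln3, the hydroxylase most strongly induced by low oxygen, read 7.26, 7.54, 5.70 and 7.86 in PDGF-p53, 7.35, 7.62, 7.24 and 6.79 in PDGF-p53-RBPJ and 7.77, 7.58, 7.21 and 6.72 in p53-RBPJ tumours, against 6.50, 6.17, 6.45 and 6.27 in control brain. All tumour arrays but PDGF-p53 replicate 3, the lowest array of all, lay above the controls. Egln3 rose by 0.91 and 0.97 in PDGF-p53-RBPJ and p53-RBPJ tumours (SE 0.34, adjusted p = 0.0499 and 0.0324) whereas PDGF-p53 tumours stood at 0.75 (adjusted p = 0.113). Without PDGF-p53 replicate 3 the PDGF-p53 value was 1.21 (adjusted p = 0.000555). The call in PDGF-p53-RBPJ tumours, just under the threshold, was lost when any of 11 arrays was left out (0.78 to 0.96, adjusted p up to 0.131), the exceptions being PDGF-p53 replicates 3 and 4, PDGF-p53-RBPJ replicate 4 and p53-RBPJ replicates 1 and 4, and with the trend and robust settings or a sex term (0.91 and 0.93, adjusted p = 0.0706 and 0.0597). Both calls were lost with housekeeping centring (0.58 and 0.79, adjusted p = 0.129 and 0.0579). The p53-RBPJ call also failed once control array 2, 3 or 4 or p53-RBPJ array 1 or 2 was left out (0.82 to 1.01, adjusted p between 0.0514 and 0.0949).

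Among the further hypoxia targets, Adm and P4ha1 rose in both PDGF tumour types, Ndrg1 fell in all 3, and Bnip3, Ankrd37 and Ddit4 did not pass. Adm, a vessel-dilating peptide and a sensitive HIF target, read 6.46, 8.40, 6.44 and 8.38 in PDGF-p53, 7.96, 7.79, 7.40 and 6.43 in PDGF-p53-RBPJ and 6.78, 5.65, 5.81 and 5.04 in p53-RBPJ tumours, against 5.36, 5.84, 5.52 and 5.50 in control brain. All 8 arrays of the PDGF types lay above the controls, with PDGF-p53 split into a high and a low pair, and those of p53-RBPJ tumours spanned the controls. Adm rose by 1.87 and 1.84 in PDGF-p53 and PDGF-p53-RBPJ tumours (SE 0.45, adjusted p = 0.00386 and 0.00387), which is 3.65- and 3.59-fold, and was at 0.27 in p53-RBPJ tumours (adjusted p = 0.699). P4ha1, the collagen prolyl 4-hydroxylase subunit, read 8.60, 8.92, 7.85 and 8.92 in PDGF-p53, 8.76, 8.68, 8.56 and 8.49 in PDGF-p53-RBPJ and 8.51, 8.29, 8.28 and 7.50 in p53-RBPJ tumours, against 7.59, 7.68, 7.27 and 7.55 in control brain. Of all tumour arrays p53-RBPJ replicate 4 alone lay among the controls. P4ha1 rose by 1.05, 1.10 and 0.62 (SE 0.22, adjusted p = 0.00138, 0.000841 and 0.0366). The p53-RBPJ rise did not pass when control array 1, 3 or 4 or p53-RBPJ array 1, 2 or 3 was left out (0.50 to 0.65, adjusted p between 0.0557 and 0.115), nor with housekeeping centring (0.44, adjusted p = 0.12).

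Car9, the surface carbonic anhydrase used as a hypoxia marker in human tumours, was the dimmest member, with 4.91 over the 16 arrays, where the median gene had 6.29. It read 5.15, 5.49, 5.13 and 4.85 in p53-RBPJ tumours, against 4.64, 4.95, 4.38 and 4.90 in control brain, with overlap. It rose by 0.44 there (SE 0.14, adjusted p = 0.021), and this did not hold when control array 1 or 3 or p53-RBPJ array 2 was left out (0.32 to 0.41, adjusted p between 0.054 and 0.0884), nor with only the 2 groups (0.44, adjusted p = 0.0707) or housekeeping centring (0.25, adjusted p = 0.196). Ndrg1, which is induced by low oxygen and is also a gene of myelinating glia, fell by 0.54, 0.68 and 0.63 (SE 0.16, adjusted p = 0.0155, 0.00303 and 0.00474). In PDGF-p53 tumours it failed once control array 4 or PDGF-p53 array 1 was left out (-0.47 and -0.46, adjusted p between 0.0528 and 0.0595). The mean of the oligodendrocyte markers was 6.35 to 8.45 in PDGF-p53, 6.83 to 7.55 in PDGF-p53-RBPJ and 6.31 to 6.66 in p53-RBPJ tumours, against 8.0 to 9.52 in control brain, and their part in the Ndrg1 values was not tested. Bnip3, a mitophagy receptor, was at -0.30, -0.44 and -0.71 (SE 0.40, adjusted p = 0.638, 0.451 and 0.187) and had the widest spread of all members in PDGF-p53-RBPJ tumours (SD 0.72). Ankrd37 was at 0.45, 0.51 and 0.41 (adjusted p = 0.127, 0.0789 and 0.153), and Ddit4, an inhibitor of mTORC1, was at 0.18, 0.19 and 0.13 (adjusted p = 0.387, 0.37 and 0.552). Ankrd37 passed in PDGF-p53 tumours without replicate 3 of that group (0.66, adjusted p = 0.0153), in PDGF-p53-RBPJ tumours without that same array, without p53-RBPJ replicate 4 or in a fit of only the 2 groups (0.51, adjusted p = 0.0383, 0.0434 and 0.0165), and in p53-RBPJ tumours without p53-RBPJ replicate 4 (0.61, adjusted p = 0.0253).

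Isoforms of the same step were compared within each array, as the log2 value of the first minus that of the second, and the change of this difference between groups was tested by permuting the array labels in every way (an exact permutation test, two-sided, 4 arrays against 4). Of 9 pairs 8 were measured, which gave 48 tests over 6 comparisons. In 11 of them p was 0.0286, the smallest that 4 against 4 arrays allow, and after adjustment over the 48 tests 0 passed, with 0.125 as the smallest adjusted p. Since p cannot go lower, a test could pass only if most of the 48 reached that value, so no conclusion is drawn from the 0. Hif1a minus Epas1 was 1.74, 1.24, 0.12 and 0.74 in PDGF-p53, 1.59, 0.93, 1.40 and 1.04 in PDGF-p53-RBPJ and 2.16, 2.66, 1.01 and 1.62 in p53-RBPJ tumours, against -0.06, -0.21, -0.20 and 0.10 in control brain. All tumour arrays were above all controls, by 1.05, 1.34 and 1.96 on average (exact p = 0.0286 and adjusted p = 0.125 for each). Ldha minus Ldhb was 1.36, 1.39, 0.29 and 2.36 in PDGF-p53, 1.88, 1.85, 1.79 and 1.14 in PDGF-p53-RBPJ and 1.70, 1.59, 2.24 and 0.68 in p53-RBPJ tumours, against 0.25, 0.39, -0.10 and -0.05 in control brain. PDGF-p53 replicate 3 overlapped the controls, and the changes were 1.22, 1.54 and 1.43 (exact p = 0.0571, 0.0286 and 0.0286, adjusted p = 0.196, 0.125 and 0.125). Pfkl minus Pfkm changed by 1.0, 1.35 and 1.49 (exact p = 0.0857, 0.0286 and 0.0286, adjusted p = 0.242, 0.125 and 0.125), and Pfkp minus Pfkm by 0.16, 0.36 and 0.12 (exact p = 0.371, 0.0857 and 0.714).

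The Hk2 minus Hk1 difference depended on the Hk1 probe set. With the brighter one it changed by 0.76, 0.93 and 0.62, with overlap in all but PDGF-p53-RBPJ tumours (exact p = 0.114, 0.0286 and 0.0857). With the RefSeq one, an alternative chosen after seeing the data, it changed by 1.84, 2.04 and 1.98, with no overlap (exact p = 0.0286 and adjusted p = 0.105 for each). Egln3 minus Egln1 changed by 0.02, 0.44 and 0.79 against control brain (exact p = 0.971, 0.0286 and 0.0286). It was the pair that also did not overlap between tumour types: it was 0.35 higher in p53-RBPJ than in PDGF-p53-RBPJ tumours (exact p = 0.0286, adjusted p = 0.125).

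**Figure D3:**
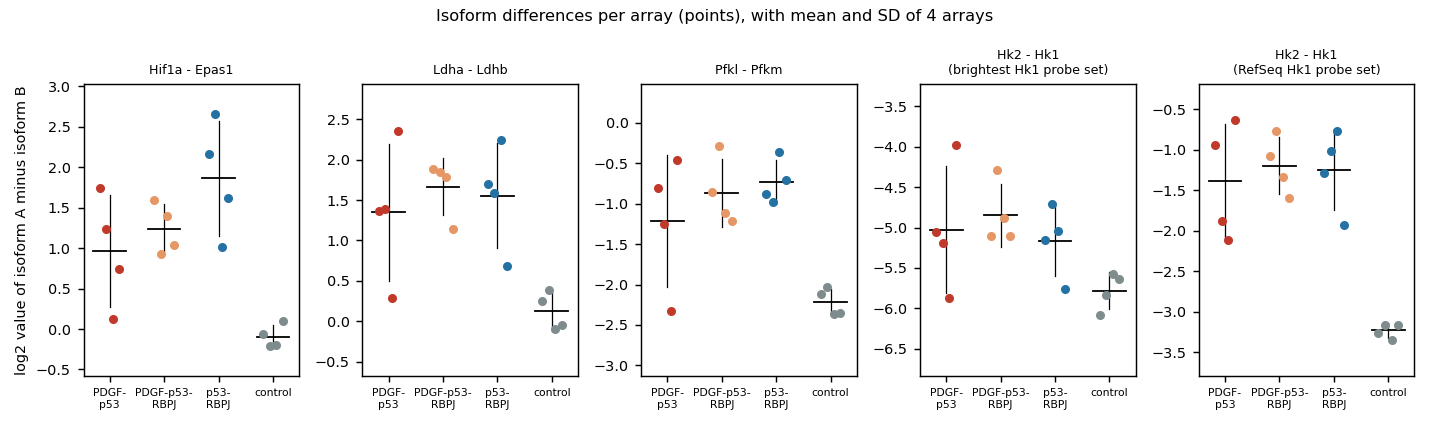
Log2 value of an isoform minus that of its partner (y axis, the same span in each panel) in each array, by group (x axis), with the mean (bar) and SD (line) of 4 arrays. Hif1a minus Epas1 is higher in all tumour arrays than in control arrays, and Hk2 minus Hk1 is so with the RefSeq Hk1 probe set, while with the brighter one only the PDGF-p53-RBPJ arrays lie wholly above the controls.

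Between the tumour types, the comparison for RBPjk on the PDGF background called no member. Between PDGF-p53-RBPJ and PDGF-p53 tumours 0 of 31 passed by limma, where 0.0201% of all genes were called, and 0 had an unadjusted p under 0.05. The differences ran from -0.44 (Epas1, 95% confidence interval -0.89 to 0.02) to 0.16, and Adm, with the widest interval, was at -0.03 (-0.98 to 0.93). The Adm difference from control brain, 1.84, lies outside that interval. Between p53-RBPJ and PDGF-p53-RBPJ tumours, which differ in the PDGF-B virus and in the cells that received Cre, 3 members fell and 0 rose, where 3.27% of all genes were called, 0.637% higher and 2.63% lower. Between p53-RBPJ and PDGF-p53 tumours 4 fell and 0 rose, where 5.54% of all genes were called, 1.93% higher and 3.61% lower. The members' median differences were -0.27 and -0.35, where those of all genes were -0.01 and 0.01. In the fit without dim genes 7.93% and 13.5% of the genes were called in these comparisons. The p53-RBPJ arrays enter both comparisons.

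Epas1 fell in p53-RBPJ tumours relative to both PDGF types, by -0.85 on the log2 scale from PDGF-p53-RBPJ and by -1.29 from PDGF-p53 tumours (SE 0.21, adjusted p = 0.0377 and 0.00253), and its arrays did not overlap with either. Eno2 differed by -0.95 and -0.90 (SE 0.23, adjusted p = 0.0337 and 0.0326), without overlap with PDGF-p53-RBPJ arrays. Pkm differed by -0.63 and -0.61 (SE 0.17, adjusted p = 0.0461 and 0.0363), without overlap with either type. The dimmer Pkm probe set was at -0.41 and -0.30 (adjusted p over all probe sets = 0.284 and 0.439). Adm stood at -1.60 from PDGF-p53 tumours (SE 0.45, adjusted p = 0.0476) and at -1.58 from PDGF-p53-RBPJ tumours (adjusted p = 0.0679), with p53-RBPJ replicate 1 among the PDGF arrays. Tpi1 was at -1.14 and -1.06 (adjusted p = 0.0844 and 0.086), and Pfkm at -0.29 and -0.49 (adjusted p = 0.355 and 0.0638). Apart from Epas1 against PDGF-p53 tumours, each of these calls was lost in several settings. The fit shares its spread over all 4 groups, while Adm had an SD of 1.12, 0.69 and 0.72 in the tumour types and 0.20 in control brain. In limma fits of only the 2 groups compared, both Epas1 calls held. Eno2 (adjusted p = 0.059 and 0.1), Pkm (0.0741 and 0.0936) and Adm against PDGF-p53 tumours (0.155) did not pass there. All 4 p53-RBPJ arrays, 1 of 4 PDGF-p53-RBPJ, 1 of 4 PDGF-p53 and 2 of 4 control arrays had the female pattern of Xist and Y-linked genes. The pattern goes largely with the p53-RBPJ group, so sex and tumour type cannot be fully told apart. With a term for the pattern 0 and 1 members were called in these comparisons. Over all genes that fit called 61 (0.306%) and 183 (0.918%), in place of 651 and 1105. With housekeeping centring 0 and 1 members were called, and 446 and 1140 genes in all. Neuron markers were lower too, 2 of 15 against PDGF-p53-RBPJ and 3 of 15 against PDGF-p53 tumours, and their part in the Eno2 values was not tested.

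These calls lay near the threshold, and leaving out single arrays, controls among them, changed many of them while the differences stayed similar in size. Against PDGF-p53-RBPJ tumours 0 members were called when array 1, 2 or 3 of those tumours or array 2 of p53-RBPJ tumours was left out, and 1 without control array 1 or p53-RBPJ array 4. Against PDGF-p53 tumours 1 was called without array 2 or 4 of that group or p53-RBPJ array 4, and 2 without p53-RBPJ array 2 or 3. In those fits 0.883% to 2.68% of all genes were called against PDGF-p53-RBPJ and 2.77% to 4.66% against PDGF-p53 tumours. Against PDGF-p53-RBPJ tumours Epas1 was at -0.88 to -0.68 (adjusted p up to 0.13) in the fits that lost its call, those without control array 1, any of the PDGF-p53-RBPJ arrays, or p53-RBPJ array 1 or 2. Eno2 was at -0.99 to -0.81 (up to 0.135) without PDGF-p53-RBPJ array 1, 2 or 3 or p53-RBPJ array 2 or 4. Pkm was at -0.67 to -0.54 (up to 0.152) without any of 13 arrays, its call remaining without PDGF-p53 array 3 or 4 or PDGF-p53-RBPJ array 4. Against PDGF-p53 tumours Eno2 was at -0.89 to -0.74 (adjusted p up to 0.106) without PDGF-p53 array 2, 3 or 4 or p53-RBPJ array 2 or 4, and Pkm at -0.65 to -0.47 (up to 0.105) without PDGF-p53 array 2 or 4 or p53-RBPJ array 1, 3 or 4. Adm was at -1.60 to -1.27 (up to 0.151) without any of 12 arrays, its call remaining without PDGF-p53 array 1 or 3, PDGF-p53-RBPJ array 4 or p53-RBPJ array 1. Other members passed in some of these fits. Without p53-RBPJ array 1 these were Adm (-1.90, adjusted p = 0.0309) and Tpi1 (-1.49, adjusted p = 0.0158) against PDGF-p53-RBPJ tumours, and Tpi1 (-1.41, adjusted p = 0.0145) and Pfkm (-0.59, adjusted p = 0.0294) against PDGF-p53 tumours. Without PDGF-p53-RBPJ array 4, Adm (-1.90, adjusted p = 0.0288) and Tpi1 (-1.37, adjusted p = 0.0416) passed against PDGF-p53-RBPJ tumours. Without PDGF-p53 array 3, Adm (-1.58, adjusted p = 0.0477) passed there too, as did Tpi1 (-1.33, adjusted p = 0.0416) against PDGF-p53 tumours, and without PDGF-p53 array 1 Pfkm did (-0.57, adjusted p = 0.036). With array weights Adm and Tpi1 also passed against PDGF-p53-RBPJ tumours (-1.64 and -1.22, adjusted p = 0.0273 and 0.0284), and without dim genes Adm did (-1.58, adjusted p = 0.0463), as did Pfkm against PDGF-p53 tumours (-0.49, adjusted p = 0.0393). No direction turned in these fits.

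Within each tumour type, 1 array held the lowest value for most members. PDGF-p53 replicate 3 held the lowest value of its type for 21 of 31 members (67.7%, against 26.9% of all genes). PDGF-p53-RBPJ replicate 4 did so for 21 members (67.7% against 24.4%), and p53-RBPJ replicate 4 for 22 (71% against 23%). In control brain replicates 1 and 3 shared this place, with 41.9% and 45.2% of the members, against 32% and 23.6% of all genes. The 3 tumour arrays were picked after their values were seen, so the shares are a description. Members that were lowest in all 3 of them numbered 16 (51.6%, against 3.24% of all genes): Egln1, Egln3, Hk2, Pfkl, Pfkfb3, Aldoa, Tpi1, Pgk1, Pgam1, Pkm, Ldha, Slc16a3, Pdk1, Adm, Bnip3 and P4ha1. Of 59 other measured genes of the pathway 9 were (15.3%), among them the glucose transporter Slc2a1 and the vessel growth factor Vegfa. The median SD of a member was 0.43 in PDGF-p53 tumours, 0.30 with RBPjk deleted as well and 0.32 in p53-RBPJ tumours, where all genes had 0.20, 0.19 and 0.20. In control brain the members had 0.17 and all genes 0.19.

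**Figure D4:**
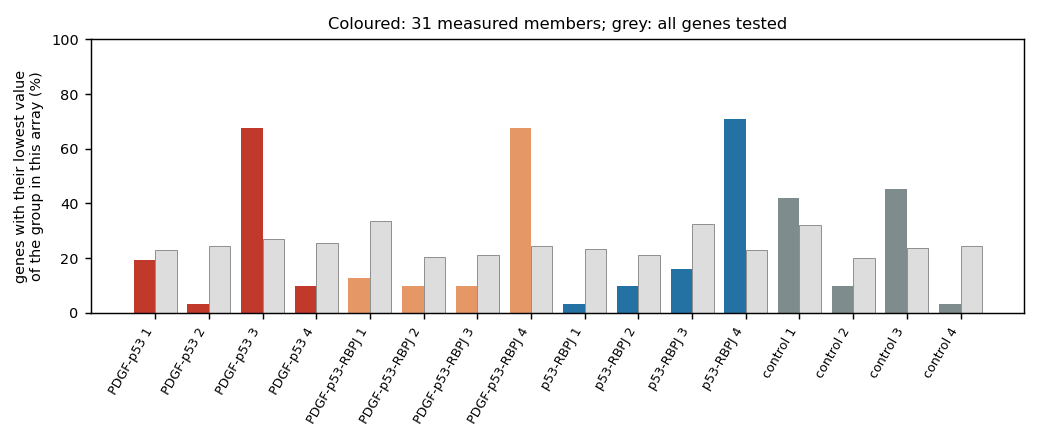
Share of genes whose lowest value of the group fell in a given array (y axis, percent), for the 31 measured members (coloured) and for all genes (grey), in the 16 arrays (x axis). PDGF-p53 replicate 3, PDGF-p53-RBPJ replicate 4 and p53-RBPJ replicate 4 stand at 67.7%, 67.7% and 71% of the members, against 26.9%, 24.4% and 23% of all genes.

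Oligodendrocyte markers were highest of their type in all 3 low arrays, with a mean of 8.45 in PDGF-p53 replicate 3 (6.35 to 7.35 in the other arrays of the type), 7.55 in PDGF-p53-RBPJ replicate 4 (6.83 to 7.18) and 6.66 in p53-RBPJ replicate 4 (6.31 to 6.58). Other lists differed between the 3. The mean of the neuron list was 8.83 in PDGF-p53 replicate 3 and 7.44 to 7.78 in the other arrays of its type, whereas PDGF-p53-RBPJ replicate 4 (7.61) and p53-RBPJ replicate 4 (7.05) lay within the range of the other arrays. The mean of the proliferation list was the lowest of its type in PDGF-p53 replicate 3 (8.41) and PDGF-p53-RBPJ replicate 4 (8.76) and not in p53-RBPJ replicate 4 (8.91), and that of the endothelial list behaved alike (6.45, 6.47 and 6.69). The part of cell makeup in the low arrays was not tested.

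Other genes of glycolysis, pyruvate use and hypoxia were taken from a list of 65, of which 59 were measured. In PDGF-p53 tumours 9 were higher and 16 lower than in control brain, in PDGF-p53-RBPJ tumours 10 and 18, and in p53-RBPJ tumours 9 and 20. For all genes the shares called higher and lower were 13.6% and 17.6%, 15.7% and 17.9%, and 16.4% and 20.4%. Between PDGF-p53-RBPJ and PDGF-p53 tumours 0 were called, between p53-RBPJ and PDGF-p53-RBPJ tumours 1, and between p53-RBPJ and PDGF-p53 tumours 4, all lower in p53-RBPJ. Of all genes 0.0201%, 3.27% and 5.54% were called in these comparisons, with 2.63% and 3.61% lower in the last 2. Igfbp3, which binds insulin-like growth factors and responds to hypoxia, rose by 3.26 in PDGF-p53 and 2.97 in PDGF-p53-RBPJ tumours (SE 0.28, adjusted p = 1.68e-07 and 3.67e-07). In p53-RBPJ tumours Igfbp3 rose by 1.62 over control brain (adjusted p = 0.000161). It read 8.98, 8.34, 8.43 and 8.62 there, below all 8 arrays of the PDGF types (9.33 to 11.11), which is -1.35 from PDGF-p53-RBPJ and -1.64 from PDGF-p53 tumours (adjusted p = 0.0157 and 0.00312). The call against PDGF-p53-RBPJ tumours was lost without replicate 2 or 3 of that group (-1.27 to -1.20, adjusted p between 0.0576 and 0.0659) and with a sex term (-1.29, adjusted p = 0.133). Hmox1, heme oxygenase, rose by 2.71, 2.63 and 2.95 in the 3 tumour types (SE 0.41, adjusted p = 5.49e-05, 6.57e-05 and 1.47e-05), and Plod2, a collagen lysyl hydroxylase, by 1.95, 2.37 and 1.71 (SE 0.24, adjusted p = 7.32e-06, 7.77e-07 and 1.81e-05).

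On the side of the falls, Pdp1, the phosphatase that turns pyruvate dehydrogenase on, fell by 2.48, 2.70 and 2.01 (SE 0.29, adjusted p = 4.02e-06, 1.28e-06 and 2.28e-05). Pdk2, a kinase that turns it off, fell by 1.60, 1.71 and 1.94 (SE 0.16, adjusted p = 6.51e-07, 2.66e-07 and 3.77e-08), and Ppp1r3c, a glycogen-targeting phosphatase subunit, fell by 1.51, 1.53 and 2.05 (SE 0.18, adjusted p = 5.05e-06, 3.74e-06 and 9.43e-08). Compared with PDGF-p53 tumours, p53-RBPJ tumours had lower Edn1, a vessel-constricting peptide (-1.27, SE 0.33, adjusted p = 0.0313), lower Higd1a, a mitochondrial hypoxia-induced protein (-0.99, SE 0.17, adjusted p = 0.00356), and lower Arnt2, the neural relative of Arnt (-0.58, SE 0.14, adjusted p = 0.0256). Against control brain p53-RBPJ tumours were at -0.46 for Edn1 (adjusted p = 0.31), -0.99 for Higd1a (adjusted p = 0.00016) and -0.74 for Arnt2 (adjusted p = 0.000467). The Edn1 call failed once PDGF-p53 array 2 or 4 or p53-RBPJ array 2, 3 or 4 was left out (-1.30 to -0.87, adjusted p between 0.0548 and 0.0976). The Arnt2 call was lost without replicate 2 or 3 of either type (-0.58 to -0.48, adjusted p between 0.0514 and 0.091). With a sex term neither passed (-1.26 and -0.44, adjusted p = 0.163 and 0.25).

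Gapdh, the glyceraldehyde phosphate dehydrogenase, was named only together with further symbols, by 25 probe sets, which may read its many pseudogenes and were fitted apart. Their median differences from control brain were -0.29, -0.42 and -0.49 in the 3 tumour types, taken in the order used above. Of the 25, 23, 25 and 25 were called, all lower, with p-values adjusted over the 1621 probe sets with several symbols. The share of those 1621 that was called was not computed, so these counts have no background beside them. These probe sets overlap in what they read and are not independent.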

How the data were processed

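Total RNA from 16 samples of mouse brain and brain tumour was measured on Affymetrix arrays with 1 colour, 4 arrays for each of 4 groups assigned by title and source label. The deposited log2 expression values were made by the authors with RMA (robust multi-array averaging, which corrects background, equalises the distributions of the arrays and sums probes to probe sets) with the package oligo, according to the labels and per the submitters' processing notes, with versions, build and filters not given in the sources used here. RMA removes a change in total RNA per sample. The table held 35556 probe sets with 0 missing values, from 1.20 to 14.1, array medians of 5.97 to 6.06 and correlations of 0.971 to 0.989 between arrays of 1 group. With 4 arrays a group, precision is limited by their number.

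The platform annotation listed 23410 probe sets, 21789 with 1 symbol and 1621 with several, and left 12146 unnamed. Each gene with a single-symbol probe set was given its brightest one, for 19938 genes, of which 999 had more than 1. limma 3.58.1 (R 4.3.3) was fitted to the 16 arrays with lmFit and eBayes, with 4 group means and 6 contrasts (12 residual and 5.33 prior degrees of freedom), and p-values were adjusted over all genes by Benjamini-Hochberg, with calls under 0.05. The fit was tested on simulated data. Isoform pairs were tested by exact permutation (scipy 1.17.1). Every measured member is named, and of the other pathway genes, at most 4 for each comparison with the largest called differences and no overlap. The members, the lists and the array contrasts were chosen with earlier results of these data known. The alternatives were probe sets fitted singly or averaged, a filter on dim genes, eBayes with trend and robust settings, array weights, only the 2 groups compared, housekeeping centring, a sex term, the replicate number as a block, each array left out, and, added after seeing the data, the probe set with a RefSeq transcript.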

Additional observations from a re-analysis of the deposited data

Results flagged for a closer look

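Among 124 sets of 4 arrays (31 members in 4 groups), 6 held an array that stood far from the other 3 by Dixon's criterion, which chance alone meets in about 1 set in 20. Epas1 read 8.08 in PDGF-p53-RBPJ replicate 3, against 7.80 to 7.83 in the other arrays of its group. Aldoa read 10.52 in PDGF-p53-RBPJ replicate 4, against 11.16 to 11.27, and Ldha read 10.62 in p53-RBPJ replicate 4, against 11.27 to 11.39. These are 2 of the 3 arrays that were lowest for most members. In control brain Tpi1 read 10.29 in replicate 1, against 10.86 to 10.95, Eno2 read 9.61 in replicate 1, against 9.81 to 9.85, and Pfkl read 7.55 in replicate 2, against 7.16 to 7.20.

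For 4 members the difference from control brain differed between tumour types, by the limma contrast between the types. Epas1 stood lower in p53-RBPJ tumours, at -0.85 from PDGF-p53-RBPJ and -1.29 from PDGF-p53 tumours (adjusted p = 0.0377 and 0.00253). Eno2 stood at -0.95 and -0.90 (adjusted p = 0.0337 and 0.0326), Pkm at -0.63 and -0.61 (adjusted p = 0.0461 and 0.0363), and Adm at -1.60 from PDGF-p53 tumours (adjusted p = 0.0476). Apart from Epas1 against PDGF-p53 tumours, each of these calls was lost in several of the 26 alternatives, the sex term among them. The dimmer Pkm probe set did not pass in either comparison (adjusted p over all probe sets = 0.284 and 0.439).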

How the results depend on the processing

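Over 26 alternatives, 31 of 50 member calls passed under every one, 8 of 14 in PDGF-p53, 11 of 14 in PDGF-p53-RBPJ and 11 of 15 in p53-RBPJ tumours against control brain, 0 of 3 in p53-RBPJ against PDGF-p53-RBPJ tumours and 1 of 4 in p53-RBPJ against PDGF-p53 tumours. Leaving out each array in turn gave 9 to 17, 12 to 17 and 11 to 16 called members against control brain, 0 in PDGF-p53-RBPJ against PDGF-p53 tumours, 0 to 4 in p53-RBPJ against PDGF-p53-RBPJ and 1 to 5 in p53-RBPJ against PDGF-p53 tumours. The shares of all genes called in these fits were 26.4% to 31.5%, 29.3% to 33.9% and 33.7% to 37.1% against control brain. Between tumour types they were 0.01% to 0.0351%, 0.883% to 4.02% and 2.77% to 6.64%, in the same order. Members called in the last 2 comparisons numbered 3 and 4 as reported. Array weights gave 5 and 1 there (6% and 3.88% of all genes), and a fit of only the 2 groups 1 and 1 (1.98% and 1.45%). Housekeeping centring gave 0 and 1 (2.24% and 5.72%), and the sex term 0 and 1 (0.306% and 0.918%). The cause was not tested. Hk1 turned to -0.42 and -0.48 in the PDGF types when its probe sets were averaged, and to -0.97 and -1.03 with the RefSeq probe set, and Arnt in PDGF-p53 tumours to -0.01 with housekeeping centring. The adjusted test of the isoform pairs could hardly pass with 4 arrays a group under any alternative, so its 0 calls say nothing about stability. With the replicate number as a block, 13, 15 and 15 members were called against control brain and 0, 2 and 3 between tumour types. Of all genes 31.3%, 33.3% and 36.7% were called against control brain in that fit, and 0.01%, 3.42% and 5.77% between tumour types. Arrays of 1 number deviated together weakly (24 pairs, r from -0.121 to 0.182, median 0.0331, 7 of them over 0.1). For arrays of different numbers r ran from -0.22 to 0.252 (72 pairs, median -0.00935, 8 of them over 0.1). Whether the numbers mark a pairing was not tested. The filter on dim genes drops 1 member, Car9, and the dim signal of such genes limits their differences.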
